A study of Rattus norvegicus with 30 samples.

Results

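The energy supply genes of striated muscle were followed in rat plantaris tendons after tenotomy and repair. The 8 members were taken from a fixed list by gene name, and all 8 were found among the 13124 genes of the count table. They are Ckm, Ckmt2 and Ckb, which encode creatine kinases, Mb (myoglobin), Fabp3 (heart-type fatty acid binding protein), Cpt1b (muscle-type carnitine palmitoyltransferase), Slc2a4 (the insulin-responsive glucose transporter GLUT4) and Ucp3 (a mitochondrial uncoupling protein). Ckb is the creatine kinase of brain and other non-muscle tissues, so the list held 7 genes known from muscle and 1 counterpart from outside it. Each measurement is a read count per gene from RNA sequencing of a whole tendon, given here as CPM, the count scaled to a common library total after TMM normalisation.

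The rats were young adult male Sprague Dawley rats, and 30 tendons fell into 7 groups. The 3 control tendons came from rats with no surgery and no compound. The other 27 came from rats whose plantaris tendons were cut on both sides and sutured at once, which were then given GSK2894631A, an inhibitor of hematopoietic prostaglandin D synthase, by oral gavage. The 7D 0 mg/kg group held 5 tendons, the 7D 2 mg/kg group 4, the 7D 6 mg/kg group 3, and there were 5 each in 21D 0, 21D 2 and 21D 6 mg/kg, where 7D and 21D are days of healing and 0 mg/kg is the vehicle. The tendon was taken from just below the myotendinous junction to just above the heel bone. Control tendons therefore differ from every repaired group in surgery, handling and vehicle together.

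Creatine kinases move phosphate between ATP and creatine: the muscle isoform CKM sits at the contractile filaments, CKMT2 on the inner mitochondrial membrane of muscle, and CKB in the cytosol of most other cells. Myoglobin stores oxygen in muscle fibres, FABP3 carries fatty acids through the cytosol, CPT1B admits them to the mitochondrion, and GLUT4 brings in glucose after insulin or contraction. Tendon fibroblasts live in a poorly vascularised matrix and are not known for high levels of these muscle isoforms, but adipocytes also make GLUT4.

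Total counts per tendon were 12405741 to 49909374, and 3 counts corresponded to 0.0562 to 0.245 CPM. Reads of 18 skeletal muscle fibre genes (actins, myosins, troponins and others) made up 16.1 to 22.2% of counts in the 3 control tendons, 0.145 to 1.06% with vehicle at 7D and 0.00777 to 0.00978% in 7D 2 and 7D 6 mg/kg. At 21D the share was 0.0564 to 6.59% at 0 mg/kg, 1.03 to 2.65% at 2 mg/kg and 0.281 to 8.01% at 6 mg/kg. None of the 18 was at 0 counts in every tendon of a group. The labelled tissue, tendon, was checked with 8 tendon fibroblast genes, all of them detected, which summed to 9148 to 37039 CPM in control and 21818 to 53495 CPM in repaired tendons. The sum hides opposite directions. In 7D 0 mg/kg against control, Mkx, Kera, Fmod and Tnmd were lower (log2 -4.10, -3.09, -1.64 and -1.43, edgeR adjusted p under 0.05). Col1a1 was higher (log2 1.14), and Scx, Thbs4 and Comp did not pass. Tendons 21D 0 mg/kg replicate 2 and 21D 6 mg/kg replicates 3 and 5 stood apart from their groups with fibre shares of 0.0564, 0.281 and 0.342%. In these bulk samples, fewer muscle fibres and less RNA per fibre cannot be told apart.

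Where the members' genes start shows how far their regulatory letters are alike. RefSeq (build GRCr8, not the rn6 build of the counts) gave promoters for 6 of the 8 members, Cpt1b and Slc2a4 not among them, and the 250 bases before the start are printed 5′ to 3′ for the 3 muscle members with the widest range of levels and for Ckb, the member that went the other way. Capitals mark every match, on either strand, to CANNTG, to TATAAA (the TATA box) or to CTA and TAG with any 4 bases between them. CANNTG is the E-box, which muscle regulatory factors among others can bind. The CTA and TAG pattern is looser than a site for MEF2 factors, whose 4 middle bases are A or T. A match to it need not be a MEF2 site. Ckm lies at chr1:88189211-88189460 on the plus strand, Ckmt2 at chr2:24845512-24845761, Mb at chr7:110647743-110647992 and Ckb at chr6:136553465-136553714, all 3 on the minus strand.
Ckm: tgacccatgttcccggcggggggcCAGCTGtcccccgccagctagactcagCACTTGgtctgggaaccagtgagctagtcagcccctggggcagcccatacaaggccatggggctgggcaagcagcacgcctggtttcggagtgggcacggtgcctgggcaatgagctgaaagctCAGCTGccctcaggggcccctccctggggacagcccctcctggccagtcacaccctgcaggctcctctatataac
Ckmt2: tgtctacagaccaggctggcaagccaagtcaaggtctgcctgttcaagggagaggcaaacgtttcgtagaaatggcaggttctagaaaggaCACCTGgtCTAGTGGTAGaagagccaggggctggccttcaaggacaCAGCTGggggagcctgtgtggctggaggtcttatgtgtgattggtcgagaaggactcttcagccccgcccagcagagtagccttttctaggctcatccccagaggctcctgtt
Mb: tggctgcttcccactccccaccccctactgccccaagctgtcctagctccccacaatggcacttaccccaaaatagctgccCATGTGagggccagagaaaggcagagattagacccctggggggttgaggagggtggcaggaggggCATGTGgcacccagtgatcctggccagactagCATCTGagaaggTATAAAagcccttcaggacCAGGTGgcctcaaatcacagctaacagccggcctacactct
Ckb: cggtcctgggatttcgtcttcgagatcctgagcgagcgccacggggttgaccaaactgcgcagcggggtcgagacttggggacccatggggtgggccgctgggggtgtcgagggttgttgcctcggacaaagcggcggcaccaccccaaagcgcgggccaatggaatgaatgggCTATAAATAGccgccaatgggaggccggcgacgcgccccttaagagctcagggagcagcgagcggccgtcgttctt

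CANNTG occurred 3 times before Ckm, 2 times before Ckmt2, 4 times before Mb and 0 times before Ckb. The form CAGCTG occurred 2 times before Ckm and 1 time before Ckmt2. The CTA and TAG pattern matched before Ckmt2 and Ckb, and only the Ckb match has A or T at all 4 middle bases. That match, 76 bases before the start, overlaps a TATAAA match, so both readings rest on the same letters. CANNTG is common: 65.5% of 33469 rat promoters of this length hold it. The shares are 11.97% for CAGCTG, 3.41% for the looser CTA and TAG pattern and 12.9% for TATAAA. In that order, CANNTG first, 5, 3, 2 and 2 of the 6 members hold them. These matches are letters only and say nothing of binding.

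Against control tendons, 7 of the 8 members were lower in the repaired tendons and Ckb was higher. At 7D 0 mg/kg all 7 muscle members fell and Ckb rose (edgeR quasi-likelihood test, Benjamini-Hochberg adjusted p under 0.05). Of the 12558 genes tested, 35.8% were called higher and 35.6% lower in that comparison, so the member shares stand against a background in which most genes changed. At 7D 2 mg/kg the counts were again 1 higher and 7 lower (background 35.8% and 34%), and at 7D 6 mg/kg 0 higher and 7 lower (34.1% and 33.8%). At 21D, 1 member was higher and 7 lower with vehicle (32.2% and 33.7%), 1 higher and 7 lower at 2 mg/kg (33.8% and 35.3%) and 0 higher and 6 lower at 6 mg/kg (30.8% and 33.3%). The median log2 fold change of the 8 members was -5.00 at 7D 0 mg/kg, against 0.05 over all genes tested. All 6 comparisons share the same 3 control tendons, and without control replicate 4 the members called at 21D 0 and at 21D 6 mg/kg were 4 each. Scaling by library size alone moved the median of all genes from between 0.01 and 0.05 to between 0.51 and 0.64 on the log2 scale, and the share of all calls that were higher from between 48.0 and 51.3% to between 74.1 and 77.9%. Under it the members called in 21D 0 mg/kg were 1 higher and 5 lower, while Ckb was called higher in all 6 groups.

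**Figure D1:**
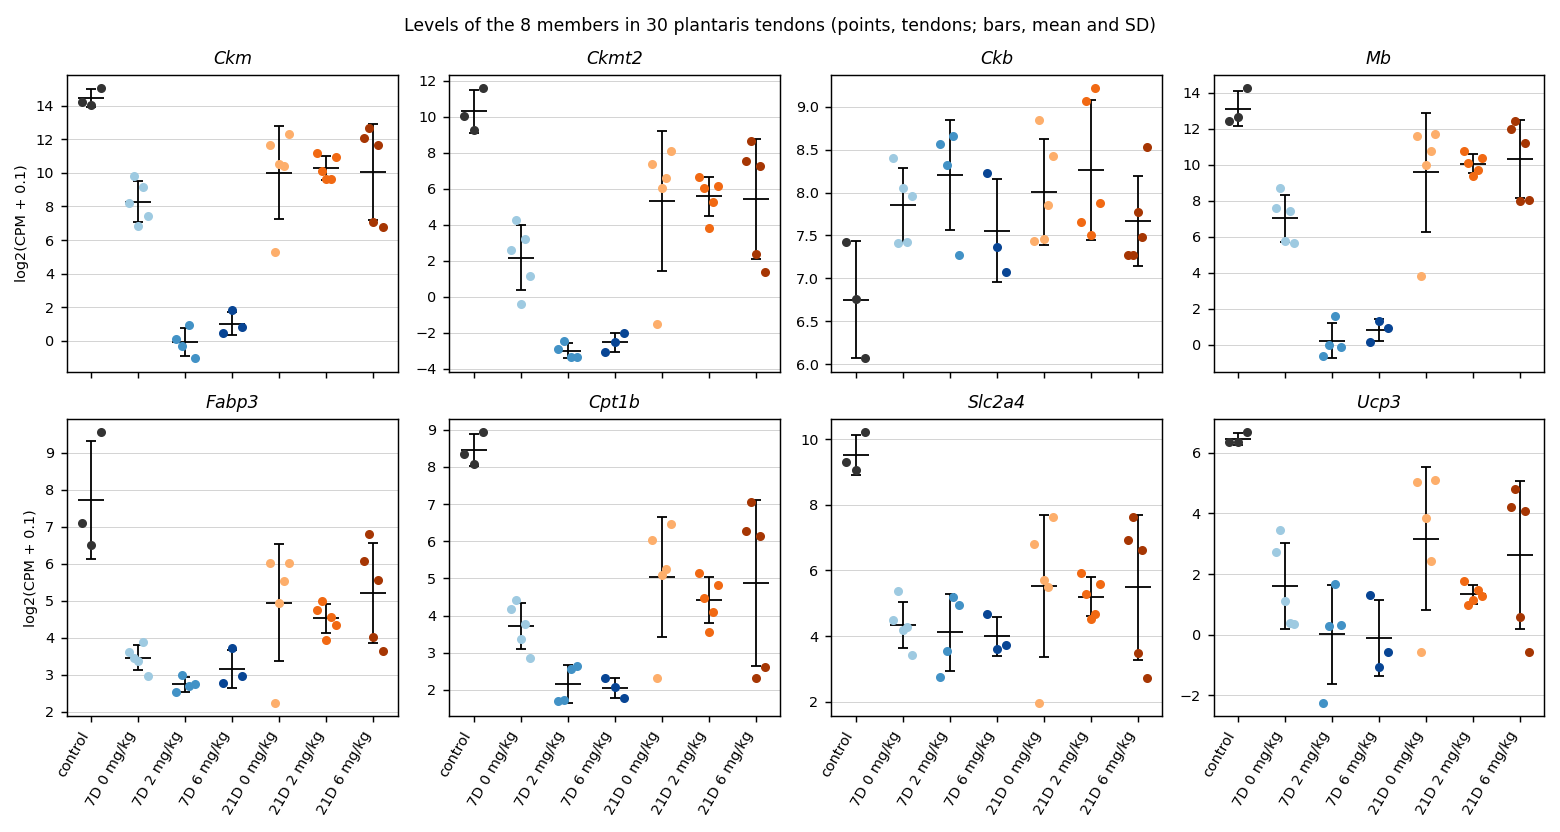
Each panel plots 1 member as log2(CPM + 0.1) in the 7 groups, with a point for each of the 30 tendons and bars for the mean and SD of the log2 values. Control tendons sit above every repaired tendon in the panels of Ckm, Ckmt2, Mb, Cpt1b, Slc2a4 and Ucp3. In the Ckb panel the control mean is the lowest, and the control tendons overlap the 7D groups and 21D 6 mg/kg. Tendons 21D 0 mg/kg replicate 2 and 21D 6 mg/kg replicates 3 and 5 lie low in the 7 muscle panels.

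Ckm, the cytosolic muscle creatine kinase, stood at 19052, 16848 and 33672 CPM in control replicates 2, 3 and 4. In 7D 0 mg/kg replicates 1 to 5 it was 292, 893, 112, 577 and 173 CPM. All 5 were far below the lowest control tendon, and the log2 fold change was -5.82 (SE 1.10, edgeR adjusted p = 4.64e-05). With inhibitor at 7D almost no Ckm reads remained: 0.995, 0.701, 1.80 and 0.385 CPM at 2 mg/kg, and 1.27, 3.41 and 1.64 CPM at 6 mg/kg. No tendon given inhibitor overlapped the 7D 0 mg/kg group. The fall against 7D 0 mg/kg was -8.72 on the log2 scale at 2 mg/kg (SE 1.37, adjusted p = 0.00117) and -7.65 at 6 mg/kg (SE 1.49, adjusted p = 0.0173). The 6 mg/kg call was lost when any 1 of the 3 tendons of that group was left out, with adjusted p from 0.174 to 0.251.

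By 21D more Ckm reads were present. The 0 mg/kg tendons held 3170, 38.4, 1444, 1332 and 5034 CPM, the 2 mg/kg tendons 2312, 1111, 804, 784 and 1941 CPM, and the 6 mg/kg tendons 4374, 6444, 136, 3160 and 107 CPM. The 3 groups overlapped one another, and all 15 tendons were below the control tendons. The rise from 7D to 21D was 10.48 (SE 1.46, adjusted p = 9.15e-05) at 2 mg/kg and 10.45 (SE 1.66, adjusted p = 0.000371) at 6 mg/kg on the log2 scale. At 0 mg/kg it was 2.43 (SE 0.91) and missed the threshold (adjusted p = 0.104), and without 21D 0 mg/kg replicate 2 and the other 2 tendons of low fibre share it was 2.74 and called (adjusted p = 0.00162).

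Ckmt2, the mitochondrial creatine kinase of muscle, followed the same order of groups. Control tendons had 1052, 628 and 3115 CPM, and 7D 0 mg/kg tendons 6.12, 18.97, 0.671, 9.33 and 2.13 CPM. The groups did not overlap, and the log2 fold change was -7.75 (SE 1.40, adjusted p = 2.69e-05). At 7D 2 mg/kg the 4 tendons gave 1, 3, 0 and 0 counts, and at 7D 6 mg/kg the 3 tendons gave 1, 1 and 5 counts. Those 4 pooled counts put the mean level in 7D 0 mg/kg at 180 times that in 7D 2 mg/kg (95% exact Poisson interval 70.3 to 660), and the 7 pooled counts put it at 106 times that in 7D 6 mg/kg (interval 51.4 to 263). These intervals cover counting error of the low group only. Between tendons the edgeR test called the 2 mg/kg difference (adjusted p = 0.049) but not the 6 mg/kg difference (adjusted p = 0.294). The likelihood ratio test and DESeq2 called the 6 mg/kg difference as well (adjusted p = 0.0110 and 0.000235), and the edgeR call at 2 mg/kg was lost in 6 of the 9 fits that left out 1 tendon. At 21D Ckmt2 ranged from 0.252 to 278 CPM at 0 mg/kg, 14.4 to 102 CPM at 2 mg/kg and 2.48 to 413 CPM at 6 mg/kg.

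Ckb, the non-muscle creatine kinase, was the member that rose. Its control tendons held 172, 109 and 67.1 CPM, the lowest in replicate 4, the control tendon with the highest fibre marker level. The 7D 0 mg/kg tendons held 338, 170, 266, 171 and 250 CPM, the 2 mg/kg tendons 380, 320, 404 and 154 CPM, and the 6 mg/kg tendons 299, 165 and 135 CPM. Each of these groups overlapped the control range. Ckb was higher by 1.04 at 7D 0 mg/kg (SE 0.45, adjusted p = 0.0419) and by 1.44 at 7D 2 mg/kg (SE 0.47, adjusted p = 0.0093) on the log2 scale. At 7D 6 mg/kg the difference was 0.78 (SE 0.49, adjusted p = 0.158).

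At 21D Ckb had 174, 461, 176, 231 and 345 CPM at 0 mg/kg, 201, 534, 182, 594 and 235 CPM at 2 mg/kg and 155, 155, 219, 179 and 371 CPM at 6 mg/kg. Vehicle tendons and those given 2 mg/kg lay above every control tendon, and those given 6 mg/kg overlapped them. The log2 fold changes against control were 1.26 (SE 0.46, adjusted p = 0.0181), 1.59 (SE 0.46, adjusted p = 0.00385) and 0.89 (SE 0.45, adjusted p = 0.0836). Without control replicate 4 the calls at 7D 0, 7D 2 and 21D 0 mg/kg were lost (adjusted p = 0.212, 0.0665 and 0.117). The 7D 0 mg/kg call was also lost without control replicate 3 or any 1 of 7D 0 mg/kg replicates 1, 3 and 5, so it held in 3 of 8 such fits. From 7D to 21D Ckb differed by 0.21 (SE 0.38), 0.15 (SE 0.40) and 0.11 (SE 0.44) at 0, 2 and 6 mg/kg, with no call.

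Mb, the oxygen store of muscle fibres, had 5632, 6462 and 19677 CPM in the control tendons. At 7D it had 197, 413, 53.9, 171 and 49.8 CPM at 0 mg/kg, 0.553, 0.897, 3.01 and 0.835 CPM at 2 mg/kg and 1.03, 2.42 and 1.86 CPM at 6 mg/kg. The vehicle group was separated from control above it and from both inhibitor groups below it. Mb fell against 7D 0 mg/kg by 7.09 (SE 1.24, adjusted p = 0.00248) at 2 mg/kg and by 6.69 (SE 1.39, adjusted p = 0.024) at 6 mg/kg on the log2 scale. The 6 mg/kg call was again lost without any 1 of its 3 tendons (adjusted p = 0.181 to 0.270).

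At 21D Mb was still below control, by a smaller log2 difference at 6 mg/kg than the other 6 muscle members. The tendons held 3083, 14.04, 1023, 1746 and 3348 CPM at 0 mg/kg, 1753, 1103, 668, 839 and 1324 CPM at 2 mg/kg and 4009, 5593, 259, 2392 and 262 CPM at 6 mg/kg. All 15 were below the lowest control tendon, the closest being 6 mg/kg replicate 2 at 5593 against 5632 CPM. The log2 fold change against control was -2.52 (SE 0.96, adjusted p = 0.0238), -3.22 (SE 0.98, adjusted p = 0.00523) and -2.08 (SE 0.95, adjusted p = 0.0592) at 0, 2 and 6 mg/kg. The 21D 0 mg/kg call did not hold without control replicate 4 (adjusted p = 0.151), with library size scaling (adjusted p = 0.0737) or with only the groups compared (adjusted p = 0.102). The 6 mg/kg difference was called by DESeq2 (adjusted p = 0.0407) and with the replicate number as a block (adjusted p = 0.0378), with adjusted p from 0.0346 to 0.146 over the alternatives.

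**Figure D2:**
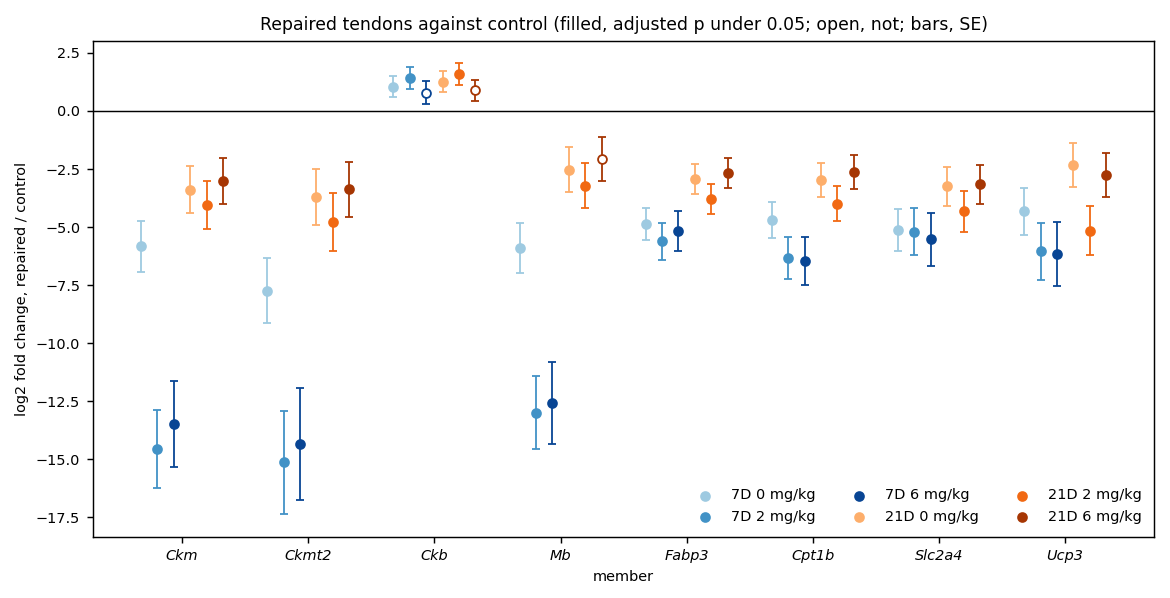
The plot gives the log2 fold change of each member in the 6 repaired groups against control tendons, with bars for the SE, filled points for an adjusted p under 0.05 and open points for the others. Ckm, Ckmt2 and Mb reach between -12.59 and -15.13 in the 7D inhibitor groups, while Fabp3, Cpt1b, Slc2a4 and Ucp3 stay between -5.17 and -6.46 there and Ckb lies above 0 throughout.

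The carriers of fatty acids fell less far. Fabp3 had 138, 91.3 and 747 CPM in control tendons. At 7D it had 12.2, 10.9, 10.2, 14.6 and 7.67 CPM with vehicle, 5.64, 7.85, 6.39 and 6.62 CPM with 2 mg/kg and 6.72, 13.1 and 7.69 CPM with 6 mg/kg. All 12 tendons at 7D were below control, and the inhibitor groups overlapped the vehicle group. The log2 fold change against control was -4.87 (SE 0.69, adjusted p = 9.37e-07) at 7D 0 mg/kg. Against 7D 0 mg/kg it was -0.74 (SE 0.62, adjusted p = 0.619) at 2 mg/kg and -0.30 (SE 0.67, adjusted p = 0.998) at 6 mg/kg. Fabp3 overlaps the gene Zcchc17 in RefSeq, and the strand setting of the counting is not given in the sources used here, so reads of the 2 genes may not be fully separated. Mb overlaps LOC134479931 and LOC134479932 there, so the same may hold for Mb.

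Cpt1b, the gate for long-chain fatty acids into muscle mitochondria, had 328, 272 and 486 CPM in control tendons. The 7D tendons had 18.1, 21.2, 10.2, 13.5 and 7.20 CPM at 0 mg/kg, 3.17, 3.22, 5.85 and 6.10 CPM at 2 mg/kg and 4.85, 4.09 and 3.32 CPM at 6 mg/kg. Every inhibitor tendon was below every vehicle tendon, but the log2 differences of -1.64 (SE 0.73) and -1.78 (SE 0.81) were not called (adjusted p = 0.27 and 0.807). A fit of only the 2 groups called the 2 mg/kg difference (adjusted p = 0.0466). Against control the log2 fold change was -4.69 (SE 0.77, adjusted p = 7.44e-06) at 7D 0 mg/kg and -2.97 (SE 0.72, adjusted p = 0.000932) at 21D 0 mg/kg.

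At 21D Fabp3 ranged from 4.63 to 65.1 CPM at 0 mg/kg, 15.3 to 31.9 CPM at 2 mg/kg and 12.3 to 111 CPM at 6 mg/kg. Cpt1b ranged from 4.91 to 88.8, 11.6 to 35.4 and 4.89 to 132 CPM. Only Fabp3 in 21D 6 mg/kg reached the control range, and 21D 0 mg/kg replicate 2 was below all 7D 0 mg/kg tendons for both genes. Cpt1b rose from 7D to 21D by 2.34 (SE 0.74, adjusted p = 0.0379) at 2 mg/kg and by 3.83 (SE 0.89, adjusted p = 0.00597) at 6 mg/kg. Fabp3 rose by 2.49 (SE 0.73, adjusted p = 0.0257) at 6 mg/kg. Leaving out 1 tendon lost the Cpt1b call at 2 mg/kg in 7 of 9 fits (adjusted p up to 0.0964) and the Fabp3 call in 4 of 8 fits (adjusted p up to 0.113). limma-trend did not call Cpt1b at 2 mg/kg either (adjusted p = 0.0570). At 0 mg/kg the Cpt1b difference was 1.72 (SE 0.65, adjusted p = 0.108). The Fabp3 differences of 1.92 at 0 mg/kg and 1.83 at 2 mg/kg missed the threshold with edgeR (adjusted p = 0.0523 and 0.0598) and passed it with the likelihood ratio test (0.0176 and 0.0258) and DESeq2 (0.0137 and 0.0208).

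Slc2a4 had 632, 529 and 1177 CPM in control tendons and 22.3, 41.0, 18.02, 19.1 and 10.6 CPM in 7D 0 mg/kg. With inhibitor at 7D it had 6.59, 11.5, 36.7 and 31.0 CPM at 2 mg/kg and 25.4, 11.96 and 13.02 CPM at 6 mg/kg. The 3 groups at 7D overlapped almost fully, and the log2 difference from the vehicle was -0.06 (SE 0.79) at 2 mg/kg and -0.39 (SE 0.87) at 6 mg/kg. Against control Slc2a4 was lower in every group, by -5.13 (SE 0.91, adjusted p = 2.11e-05) at 7D 0 mg/kg and -3.24 (SE 0.85, adjusted p = 0.0018) at 21D 0 mg/kg.

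Ucp3, a carrier of the inner mitochondrial membrane in muscle, had 81.1, 81.2 and 102 CPM in control tendons. At 7D it had 6.58, 10.9, 2.07, 1.22 and 1.17 CPM with vehicle, 0.111, 1.12, 3.11 and 1.16 CPM with 2 mg/kg and 2.36, 0.379 and 0.578 CPM with 6 mg/kg. The 7D groups overlapped and none was called against another. At 21D the tendons held 33.0, 0.566, 14.5, 5.29 and 34.2 CPM at 0 mg/kg, 3.34, 1.87, 2.12, 2.65 and 2.34 CPM at 2 mg/kg and 18.5, 28.0, 1.41, 16.9 and 0.566 CPM at 6 mg/kg. The 5 tendons of 2 mg/kg lay close together and low, inside the range of the other doses.

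Across the 3 doses at 7D, 3 of the 8 members differed (Ckm, Ckmt2 and Mb, adjusted p = 0.000127, 0.0261 and 0.000329) in a comparison that called 2.05% of all genes. limma-trend called Ckm and Mb there but not Ckmt2 (adjusted p = 0.0765). Ckm, Ckmt2 and Mb were also the members called lower with 2 mg/kg than with vehicle (background 1.45% lower), and Ckm and Mb those at 6 mg/kg (background 0.39% lower). The fast fibre markers Myh4, Mybpc2, Myl1, Tnnc2, Actn3, Mylpf and Tnni2 were called lower at both doses too. At 2 mg/kg they differed from vehicle by log2 -8.68, -7.95, -7.83, -7.65, -7.35, -7.30 and -5.23. Tnnt3 and Pvalb, the other fast markers tested, were called at neither dose (log2 -3.41 and -3.51 at 2 mg/kg). No member differed between 6 and 2 mg/kg at 7D, where edgeR called 0% of genes lower or higher. In that comparison 0 members and 997 genes had an unadjusted p under 0.05, and limma-trend, the likelihood ratio test and DESeq2 called 0, 32 and 69 genes, none of them a member.

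Across the 3 doses at 21D no member was called by edgeR, and 0% of all genes were. There 1 member (Ucp3) and 1366 genes had an unadjusted p under 0.05, and limma-trend, the likelihood ratio test and DESeq2 called 0, 7 and 138 genes but no member. When the 3 tendons of low fibre share were left out, Cpt1b (adjusted p = 0.0199) and Ucp3 (adjusted p = 0.0258) differed across doses at 21D. The effect of dose itself differed between 21D and 7D for Ckm (adjusted p = 0.0104) and Mb (adjusted p = 0.0244), in a test that called 0.39% of all genes. The Mb call was lost in 5 of the 27 fits that left out 1 tendon, with adjusted p up to 0.0709.

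From 7D to 21D, 2 members rose at 0 mg/kg (Ckmt2 and Mb, background 2.88% higher), 4 at 2 mg/kg (Ckm, Ckmt2, Mb and Cpt1b, background 7.09%) and 5 at 6 mg/kg (those and Fabp3, background 8.54%). The count at 0 mg/kg went to 0 without any 1 of 7 single tendons and to 6 without 21D 0 mg/kg replicate 2, and without the 3 tendons of low fibre share it was 7. None fell. In the test of the dose effect between times, edgeR did not call the other 6 members, while the likelihood ratio test and DESeq2 also called Ckmt2 (adjusted p = 0.00507 and 0.0129).

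The members were then set beside the muscle fibre markers. Expressed per 10000 CPM of the 18 fibre genes, Ckm was 864 ± 43.3 (SD, n = 3) in control tendons, 833 ± 108 (n = 5) in 7D 0 mg/kg, and 740 ± 52.9, 814 ± 44.7 and 598 ± 181 (n = 5 each) in 21D 0, 2 and 6 mg/kg. The Ckm level itself was 23191 ± 9144 CPM in control and 409 ± 324 CPM in 7D 0 mg/kg. Mb per fibre marker was 367 ± 146 in control, 360 ± 107 in 7D 0 mg/kg and 588 ± 229, 702 ± 115 and 716 ± 156 at 21D. The log2 ratio of Ckm differed from control by -0.22 (SE 0.06), -0.09 (SE 0.05) and -0.59 (SE 0.23) at 21D, with exact two-sided permutation p = 0.0357, 0.179 and 0.0357. For Mb it differed by 0.65 (SE 0.43), 0.99 (SE 0.33) and 1.01 (SE 0.34), with exact permutation p = 0.214, 0.0357 and 0.0357. The smallest p that 3 against 5 tendons allow is 0.0357, and none of the 24 tests passed Benjamini-Hochberg adjustment.

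Cpt1b was 13.7 ± 0.924 per 10000 in control, 39.9 ± 23.0 in 7D 0 mg/kg and 31.7 ± 33.6, 13.9 ± 2.49 and 16.1 ± 2.67 at 21D. Slc2a4 was 28.7 ± 2.97 in control, 62.7 ± 41.2 in 7D 0 mg/kg and 35.8 ± 20.0, 23.8 ± 3.53 and 25.1 ± 8.65 at 21D. In the 7D inhibitor groups, where the fibre genes summed to only 73.9 to 93.5 CPM, Slc2a4 was 2555 ± 1647 and 1989 ± 823 and Cpt1b 555 ± 151 and 482 ± 61.3, far above control, while Ckm was 122 ± 75.6 and 246 ± 115, below it. The largest share of that fibre sum came from Tnnt3, a troponin gene, at means of 42.9 and 32.7 CPM. Ckb rose against the fibre genes in every repaired group, from 4.96 ± 2.995 in control to 920 ± 770 in 7D 0 mg/kg. The fibre sum it was divided by was 204739 to 370345 CPM in control and 1365 to 10018 CPM in 7D 0 mg/kg. Mean Ckb itself was 116 and 239 CPM, so this ratio says little of Ckb.

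**Figure D3:**
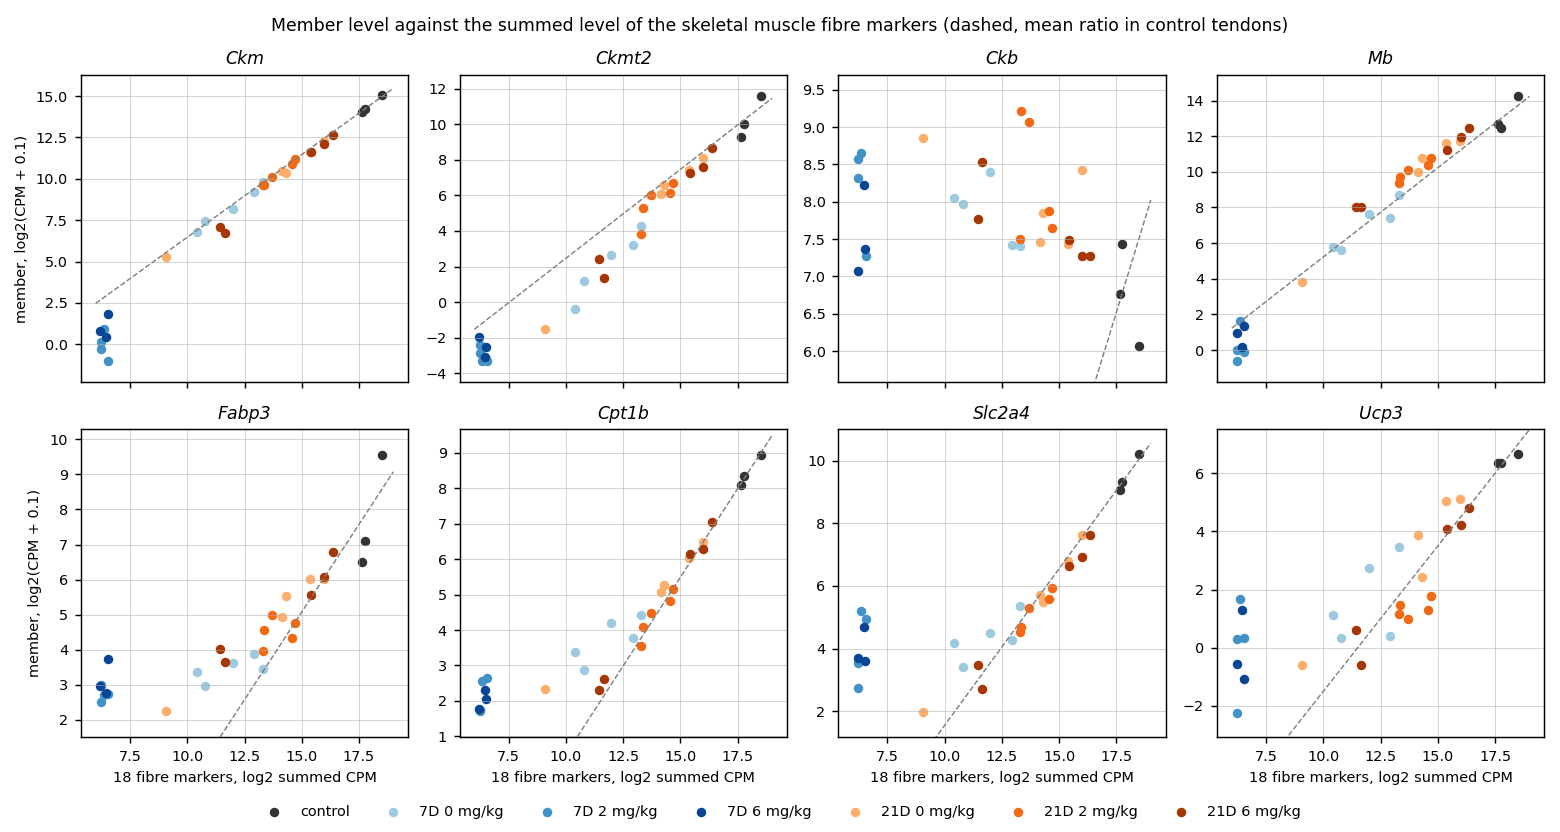
Each panel plots 1 member, as log2(CPM + 0.1), against the summed CPM of the 18 fibre markers on a log2 axis, with a point per tendon coloured by group and a dashed line at the mean ratio of the control tendons. Ckm lies near the line in most tendons, lies below it in 21D 6 mg/kg replicates 3 and 5 (489 and 335 per 10000, against 823 to 909 in control) and in the 7 tendons given inhibitor at 7D, whereas Fabp3, Cpt1b and Slc2a4 level off above the line and Ckb does not follow it.

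When the log2 fibre marker level of each tendon was added to the edgeR model as a covariate, the members called against control went from 8 to 0 at 7D 0 mg/kg and at 21D 0 mg/kg, from 8 to 2 at 7D 2 mg/kg and at 21D 2 mg/kg, and to 1 at 7D 6 and 21D 6 mg/kg. Slc2a4 then read higher than control at 7D 2 mg/kg (log2 4.13, adjusted p = 0.0104) and 7D 6 mg/kg (log2 3.79, adjusted p = 0.0163). Fibre level and group are inseparable for control tendons and inhibitor tendons at 7D. These had at least 16.1% and at most 0.00978% of counts on fibre genes, apart from all other tendons. Vehicle tendons at 7D (0.145 to 1.06%) overlapped every 21D group.

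In the 7 inhibitor tendons at 7D the adipocyte markers varied too. The 7 adipocyte genes, among them Adipoq and Plin1, summed to 388, 1052, 2936 and 2450 CPM in 7D 2 mg/kg replicates 2 to 5 and to 2498, 1210 and 1359 CPM in 7D 6 mg/kg replicates 1, 4 and 5. Slc2a4 was lowest (6.59 CPM) in the tendon with the lowest adipocyte level and highest (36.7 CPM) in that with the highest. The summed level was 348 to 633 CPM in control, 655 to 1546 CPM in 7D 0 mg/kg and 119 to 852 CPM at 21D, and no adipocyte gene was at 0 throughout a group. The list did not move as 1. Plin4 was called lower than control in every repaired group (log2 -2.32 to -3.77). At 7D 0 mg/kg Adipoq, Plin1, Retn, Lep and Cfd were called higher, and Cidec was not called (edgeR adjusted p = 0.133). The same 3 tendons with the most adipocyte reads were also the highest for Cpt1b and, by a narrow margin, for Ucp3. The part of fat tissue in these levels was not tested.

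**Figure D4:**
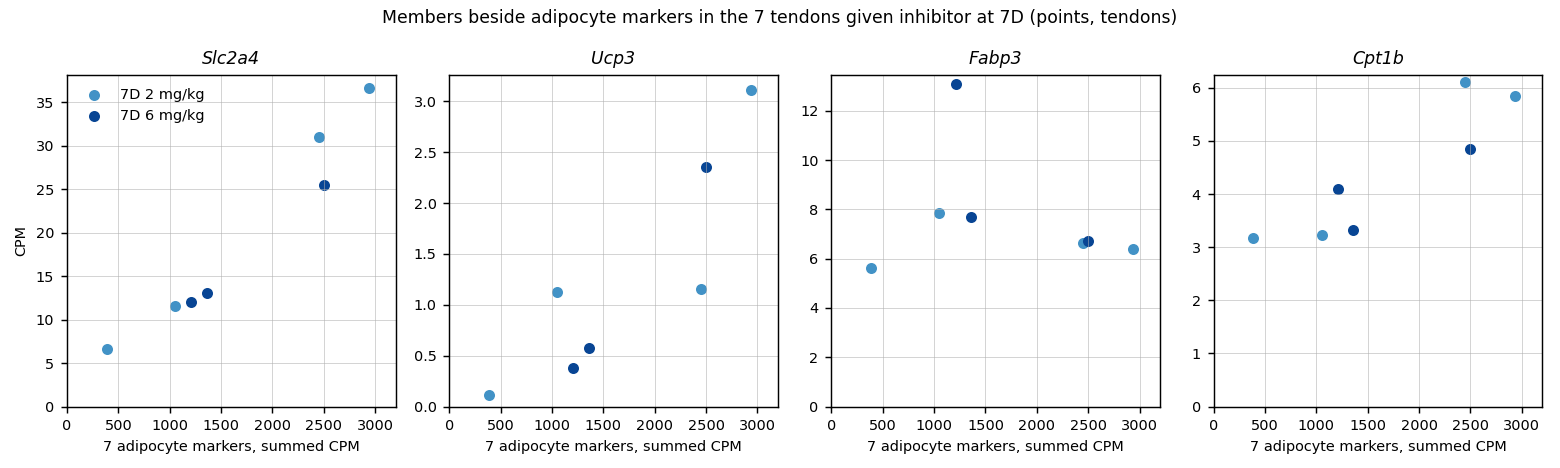
The 4 panels plot Slc2a4, Ucp3, Fabp3 and Cpt1b in CPM against the summed CPM of 7 adipocyte markers, for the 7 tendons given 2 or 6 mg/kg at 7D. The 3 tendons with the most adipocyte marker reads hold 25.4 to 36.7 CPM of Slc2a4 and the other 4 hold 6.59 to 13.02 CPM. The same 3 tendons are the highest for Cpt1b (4.85 to 6.10 against 3.17 to 4.09 CPM). They are also the highest for Ucp3, but without a clear gap (1.16 to 3.11 against 0.111 to 1.12 CPM). Fabp3 shows no split.

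The non-muscle counterparts of the members, chosen as a list of 7 with Ckb, did not fall in any group. At 7D 0 mg/kg 4 of 7 rose and 0 fell, namely Ckb, Cygb (cytoglobin), Fabp5 (the epidermal fatty acid binding protein) and Slc2a1 (the ubiquitous glucose transporter GLUT1). Slc2a1 had 8.51 CPM in control and 54.9 CPM in 7D 0 mg/kg, a log2 fold change of 2.68 (SE 0.82, adjusted p = 0.00549). Fabp5 had 24.1 and 140 CPM, a change of 2.54 (SE 0.54, adjusted p = 0.000187), and Cygb 61.0 and 102 CPM, a change of 0.74 (SE 0.21, adjusted p = 0.00314). With the fibre marker covariate these 3 calls were lost, at log2 0.45 for Slc2a1, 0.97 for Fabp5 and 0.55 for Cygb (adjusted p = 0.667, 0.147 and 0.137). Fabp4, Cpt1a and Ucp2 had log2 fold changes of 0.53 (SE 0.46), 0.32 (SE 0.17) and 0.70 (SE 0.32) and did not pass (adjusted p = 0.308, 0.0949 and 0.0526). All 7 were called higher under library size scaling, and Ucp2 under 7 of the alternatives. In the other repaired groups 5, 3, 4, 4 and 2 of 7 rose at 7D 2, 7D 6, 21D 0, 21D 2 and 21D 6 mg/kg, where 35.8%, 34.1%, 32.2%, 33.8% and 30.8% of all genes did, so the counts at 6 mg/kg were near the background.

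Genes of creatine supply mostly fell, where 35.6% of all genes were called lower and 35.8% higher in 7D 0 mg/kg. Of 4 tested, 3 were lower in 7D 0 mg/kg and 0 higher: Slc6a8, the creatine transporter, at 194 against 76.6 CPM (log2 -1.34, SE 0.13, adjusted p = 2.34e-09), Gamt, which makes creatine in its last step, at 93.7 against 19.5 CPM (log2 -2.26, SE 0.27, adjusted p = 5.9e-08), and Ckmt1, the ubiquitous mitochondrial creatine kinase, at 50.6 against 0.332 CPM (log2 -7.24, SE 1.44, adjusted p = 0.000109). Ckmt1 had 0 counts in all 3 tendons of 7D 6 mg/kg. With the fibre marker covariate its 7D 0 mg/kg difference became log2 0.55 and was not called (edgeR adjusted p = 0.744). Slc6a8 and Gamt were still called lower with it. Gatm, which starts creatine synthesis, stood at 32.5 and 32.7 CPM (log2 0.01, SE 0.17, adjusted p = 0.977). The other groups had 3 or 4 of the 4 lower, where 33.3 to 35.3% of all genes were. Under library size scaling 3 of 4 were still lower and Gatm was higher in 7D 0 mg/kg, but only 1, 2 and 1 of 4 were lower at 21D 0, 2 and 6 mg/kg.

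The wider pathway of fatty acid uptake and oxidation fell nearly as a whole. Of 23 genes tested, 21 were lower and 1 higher in 7D 0 mg/kg, with a list median of -1.95 against 0.05 for all genes on the log2 scale. In that comparison 35.6% of all genes were called lower and 35.8% higher. The 3 largest falls among those called were Acsl6 (an acyl-CoA synthetase, log2 -6.19, SE 0.96, adjusted p = 3.54e-06), Acadm (medium-chain acyl-CoA dehydrogenase, log2 -3.68, SE 0.40, adjusted p = 2.15e-08) and Hadhb (a subunit of the mitochondrial trifunctional protein, log2 -2.71, SE 0.27, adjusted p = 4.04e-09). The one rise was Slc27a1, a fatty acid transporter of the cell surface, at 36.1 against 58.1 CPM (log2 0.69, SE 0.19, adjusted p = 0.00226). With the fibre marker covariate the Slc27a1 call was lost (log2 0.52, adjusted p = 0.120), while Acsl6, Acadm and Hadhb were still called lower. In the 7D 2, 7D 6, 21D 0, 21D 2 and 21D 6 mg/kg groups 21, 20, 21, 21 and 21 of the 23 were lower. Of all genes 34%, 33.8%, 33.7%, 35.3% and 33.3% were lower there. Under library size scaling 18 to 20 of the 23 were lower in the 6 groups.

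Regulators of fuel choice moved the same way. Of 14 tested, 12 fell and 2 rose in 7D 0 mg/kg (list median -2.92), where 35.6% of all genes fell and 35.8% rose. The largest falls were in Ppargc1a (a coactivator of mitochondrial biogenesis, log2 -5.60, SE 0.75, adjusted p = 4.32e-07), Prkaa2 (the muscle catalytic subunit of AMP kinase, log2 -5.23, SE 0.95, adjusted p = 2.73e-05) and Pdk4 (a kinase that shuts glucose carbon out of the mitochondrion, log2 -4.85, SE 0.86, adjusted p = 2.16e-05). The 2 that rose were Tbc1d1 (log2 0.49, SE 0.10, adjusted p = 0.000142), a regulator of GLUT4 traffic, and Ppard (log2 0.34, SE 0.12, adjusted p = 0.013), a fatty acid receptor of the nucleus. With the fibre marker covariate the calls of Tbc1d1, Ppard, Prkaa2 and Pdk4 were lost, at log2 0.25, 0.16, -0.19 and -1.12. Their adjusted p were then 0.124, 0.463, 0.818 and 0.237. Ppargc1a was still called lower with the covariate. The Ppard call was also lost with only the groups compared (adjusted p = 0.0570). In the other repaired groups 11 or 12 of the 14 were lower, where 33.3 to 35.3% of all genes were. These lists, like the members, moved beside the fibre markers, of which 18 of 18 were lower in 7D 0 mg/kg, and the part of muscle in them was not tested.

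**Figure D5:**
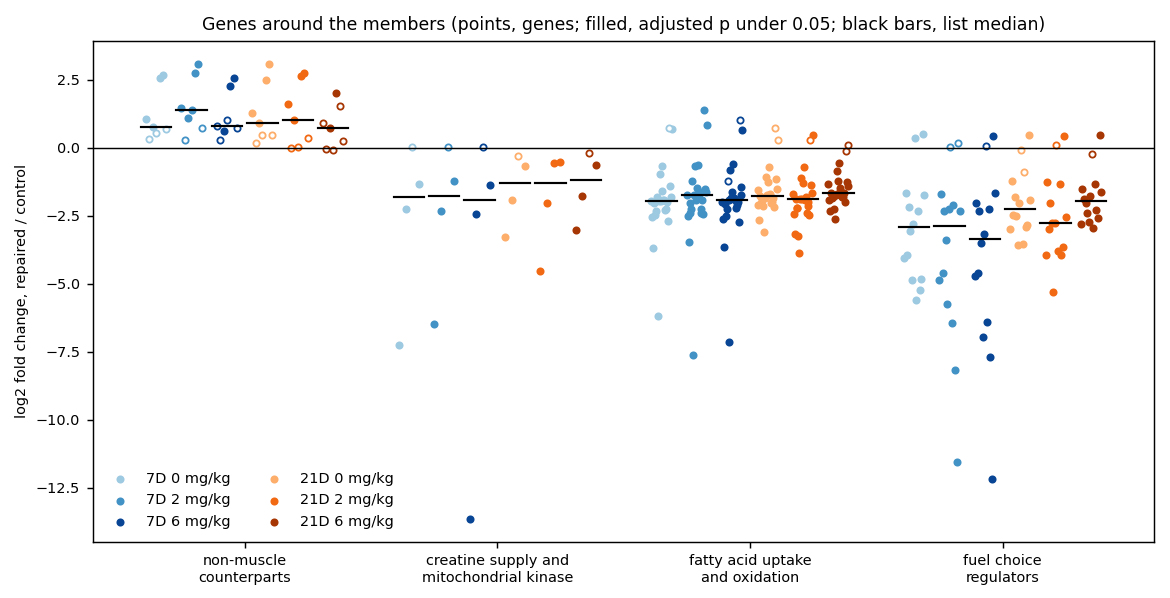
The plot gives the log2 fold change against control tendons of each gene of 4 lists in the 6 repaired groups, with filled points for an adjusted p under 0.05, open points for the others and black bars for list medians. The non-muscle counterparts lie at or above 0 apart from a few open points just below it, and the other 3 lists lie mostly below 0, with medians of -1.80, -1.95 and -2.92 in 7D 0 mg/kg.

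For 7 members, the genes whose log2 CPM ran most like theirs over the 30 tendons are given, and those of Ckm and Mb were mostly contractile genes. For Ckm they were Acta1, Myoz1 and Myl1 (Pearson r = 0.998, 0.996 and 0.996), for Ckmt2 Tnni2, Sh3bgr and Apobec2 (r = 0.993, 0.991 and 0.990), and for Mb Myl1, Tnnc2 and Mylpf (r = 0.994, 0.993 and 0.992). For Cpt1b they were Dmpk, Speg and Sec31b (r = 0.988, 0.986 and 0.985), for Slc2a4 Ppp1r1a, Ndrg2 and Rxrg (r = 0.987, 0.984 and 0.984), and for Fabp3 Fndc5, Acyp2 and Coq8a (r = 0.970, 0.967 and 0.963). For Ckb they were Tgfbr1, Tns3 and RGD1304694 (r = 0.942, 0.940 and 0.939). The 30 points share their groups and their muscle content, so these values describe likeness only.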

How the data were processed

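RNA sequencing of 30 plantaris tendons was analysed, grouped by the time and dose in the labels, each tendon from a separate rat. Per the methods, the authors used fastp for trimming and STAR for alignment to rn6 and assigned reads to exons of the Ensembl annotation; FastQC and edgeR are also named in the submitters' processing notes. The deposited counts are raw counts per gene with no normalization. A second deposited table holds the authors' own fold changes, average log2 CPM, p-values and FDR, none of which was used, and other columns, from which the chromosome and gene width were read. The methods would leave 4 tendons in 7D 6 mg/kg, but 3 are labelled so, and the labels were used.

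Counts were fitted in R 4.3.3 with edgeR 4.0.16, using 1 quasi-likelihood model of 7 group means over all tendons with TMM scaling. Genes whose group mean reached 3 CPM in any group were tested (12558 of 13124), all 8 members among them. P-values were adjusted by Benjamini-Hochberg over these genes and called under 0.05, in 15 comparisons. The SE was taken as the absolute log2 fold change divided by the square root of F, and fitted folds of genes near 0 counts depend on the prior count. Ratios to fibre markers were tested by an exact two-sided permutation test of log2((CPM + 0.5)/summed CPM) with scipy 1.17.1. Reads carried no molecular identifiers, so PCR copies are not independent and floors and Poisson intervals cover counting error only.

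The members and lists were chosen with earlier results of these data known. Other genes were named by rule: all counterparts and creatine supply genes, the 3 largest rises and falls called in 7D 0 mg/kg in the fatty acid and fuel lists, and the 3 genes of highest r per member, which for Ucp3 are not reported here. Marker lists of fibres, fast and slow fibres, adipocytes, tendon fibroblasts, macrophages, endothelium, smooth muscle, nerve and Schwann cells were summed per tendon. Listed genes without a row, such as Cd36, Myh1 and Ttn, were not analysed here. Levels were not compared between genes, as transcript lengths were not used. The scripts were tested on simulated data. Alternatives were RLE scaling (DESeq2's size factors), library size only, TMM without muscle genes, no filter, filterByExpr, the likelihood ratio test, limma-trend (limma 3.58.1), DESeq2 1.42.0, only the groups compared, a replicate block, a fibre marker covariate, at least 1.5-fold, each tendon left out, fast markers only and a pseudocount of 0.1, and, chosen after seeing the data, the 3 tendons of lowest fibre share at 21D left out.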

Additional observations from a re-analysis of the deposited data

Results flagged for a closer look

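In 7D 2 mg/kg, Mb stood at 3.01 CPM in replicate 4 and at 0.897 CPM in the next highest of the 4 tendons, a gap that passed Dixon's test at the 95% level. This was 1 flag in 40 member and group combinations, where chance flags about 1 in 20, and replicate 4 also had the highest adipocyte marker sum of its group (2936 CPM). Ckm and Mb differed between 21D and 7D in the effect of dose, with edgeR adjusted p = 0.0104 and 0.0244. Both had fewer reads with inhibitor than with vehicle at 7D (log2 -8.72 and -7.09 at 2 mg/kg), and at 21D neither was called across doses (adjusted p = 0.778 and 0.738).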

How the results depend on the processing

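With the fibre marker level as a covariate, the members called were 0, 2, 1, 0, 2 and 1 against control (7D 0, 2 and 6, then 21D 0, 2 and 6 mg/kg), 0 and 3 from 7D to 21D at 0 and 6 mg/kg, 5 and 5 for 2 and 6 against 0 mg/kg at 7D, 5 across doses at 7D and 5 for the dose effect between times. It reversed these log2 fold changes. At 7D 0 mg/kg against control Ckm became 0.37, Ckmt2 0.21, Ckb -0.062, Mb 0.15, Ucp3 0.82, Fabp4 -0.11, Cpt1a -0.10 and Ckmt1 0.55. At 7D 2 mg/kg Ckmt2 became 1.22, Ckb -0.66, Fabp3 0.77, Cpt1b 1.83, Slc2a4 4.13 and Ucp3 4.22, and at 7D 6 mg/kg Ckmt2 1.88, Ckb -1.29, Fabp3 1.17, Cpt1b 1.67, Slc2a4 3.79 and Ucp3 4.08. At 21D 0 mg/kg Ckm became 0.068, Ckmt2 0.80, Mb 0.79 and Ucp3 0.46, at 21D 2 mg/kg Ckm 0.19, Ckmt2 0.90 and Mb 1.06, and at 21D 6 mg/kg Ckmt2 0.36 and Mb 1.09. From 7D to 21D at 0 mg/kg Ckm became -0.30, Cpt1b -0.075, Slc2a4 -0.44 and Ucp3 -0.36, at 2 mg/kg Ckmt2 -0.31, Fabp3 -2.21, Cpt1b -3.03, Slc2a4 -5.22 and Ucp3 -5.77, and at 6 mg/kg Ckmt2 -1.52, Fabp3 -2.07, Cpt1b -2.49, Slc2a4 -4.76 and Ucp3 -4.50. For 2 against 0 mg/kg at 7D Ckmt2 became 1.004, Ckb -0.59, Fabp3 2.19, Cpt1b 2.25, Slc2a4 4.34 and Ucp3 3.40, and for 6 against 0 mg/kg Ckmt2 1.67, Fabp3 2.59, Cpt1b 2.09, Slc2a4 4.002 and Ucp3 3.26. Fibre level set control and the 7D inhibitor groups apart from all other groups, while vehicle tendons at 7D overlapped every 21D group. The cause was not tested.

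Fitting only the groups compared gave 3 members in 21D 6 mg/kg against control, and 0 and 3 from 7D to 21D at 0 and 6 mg/kg. From 7D to 21D at 0 mg/kg limma-trend gave 0 and DESeq2 gave 4. Without the 3 tendons of low fibre share, chosen after seeing the data, 7 members were called from 7D to 21D at 0 mg/kg, 2 across doses at 21D and 4 for the dose effect, and Ckb from 7D to 21D became -0.047 at 0 mg/kg and -0.29 at 6 mg/kg. Gatm at 7D 0 mg/kg became -0.030 with RLE scaling, -0.031 with DESeq2, -0.013 with only the groups compared and -0.050 with the replicate block. The ratio of Ckm to fast markers in 21D 2 mg/kg became 0.078, and that of Ucp3 in 21D 6 mg/kg with a pseudocount of 0.1 became -0.030. The causes were not tested.

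Leaving out 1 tendon at a time gave 7 to 8, 7 to 8, 7, 4 to 8, 8 and 4 to 8 members against control, 0 to 6, 3 to 4 and 4 to 7 from 7D to 21D, 2 to 3, 0 to 2 and 0 for 2 against 0, 6 against 0 and 6 against 2 mg/kg, 2 to 3 and 0 across doses at 7D and 21D, and 1 to 2 for the dose effect. Ckb from 7D to 21D ranged from -0.047 to 0.37 at 0 mg/kg, -0.13 to 0.32 at 2 mg/kg and -0.18 to 0.52 at 6 mg/kg, Slc2a4 at 2 against 0 mg/kg from -0.45 to 0.28 and Gatm from -0.15 to 0.18. The 21D 0 and 21D 6 mg/kg counts fell to 4 without control replicate 4. By the median correlation of deviations, same-numbered tendons were no more alike than others (0.0068 over 76 pairs against 0.0088 over 307). Of these pairs 29 and 89 exceeded 0.1, and 10 of 30 tendons correlated best with their own number. With the replicate block the dose effect was called for 1 member, and Ckmt2 at 2 against 0 mg/kg and across doses at 7D was not called (adjusted p = 0.0777 and 0.0511).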

Other observations

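Marker lists of other cells were summed in each tendon. Macrophage genes summed to 213 to 1202 CPM in control and 1135 to 7028 CPM in repaired tendons, and slow fibre genes to 1854 to 10974 CPM in control and 510 to 3632 CPM in repaired tendons. The slow fibre genes did not fall alike. At 7D 2 mg/kg against control Tpm3 and Atp2a2 changed by log2 -0.86 and -1.63. Myh7, Myl2, Myl3, Tnnt1, Tnni1 and Tnnc1 changed by -11.4, -11.7, -11.2, -9.21, -9.95 and -7.59. Endothelial genes summed to 106 to 444 CPM in control and 122 to 465 CPM in repaired tendons. Nerve and Schwann cell genes summed to 84.4 to 128 CPM in control and 97.0 to 444 CPM in repaired tendons, the highest in 7D 2 mg/kg. The smooth muscle list summed to 5090 to 8632 CPM in control and 174 to 2188 CPM in repaired tendons, and its desmin gene, Des, which skeletal muscle also makes, was 6120 CPM of the control mean. Fast fibre genes summed to 141687 to 265999 CPM in control and 58.6 to 51245 CPM in repaired tendons.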
